A study of Mus musculus with 3 samples.

Results

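The filaggrin and fused S100-type genes were Crnn, Flg2, Flg, Hrnr, Rptn, Tchh and Tchhl1, 7 neighbouring genes of mouse chromosome 3. Peaks of chromatin immunoprecipitation with sequencing (ChIP-seq) were assigned to them when the nearest end of a protein-coding gene (GRCm38) belonged to 1 of the 7, or when its centre was no more than 1 kb from 1 of their ends. That rule gave 41 of 57936 HDAC3 peaks and 37 of 47155 KLF4 peaks, and it used positions only, not peak heights. All 7 symbols were found in the gene table as protein-coding, in an unbroken row from 93144789 to 93471980 with no other protein-coding gene among them. Their protein domains were not checked here.

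The chromatin was that of back skin epidermis from wild-type mice, taken at E18.5 of gestation, shortly before birth. The study made 3 libraries from it: HDAC3 ChIP with the antibody Abcam ab7030, KLF4 ChIP with R&D AF3158, and an input library with no antibody, which served as the background of both peak lists. The HDAC3 library held 56787485 tags (aligned reads) and the KLF4 library 61432711. Each antibody had a single library, so differences could not be set against a spread between replicates, nothing was tested, and every interval below covers counting error only. Whether the chromatin of several embryos was pooled is not given in the labels. Expression was not measured in these libraries, so the tissue could not be checked against marker genes, and a peak cannot be placed in 1 layer of the epidermis.

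Fused S100-type proteins join a calcium-binding S100 domain at the amino terminus to long tandem repeats, and their genes lie in the epidermal differentiation complex. Profilaggrin, the Flg product, is stored in keratohyalin granules, cut into filaggrin units that bundle keratin filaments, and finally broken down to amino acids that hold water in the outermost layer. KLF4, a transcription factor of the zinc finger class, is required to build the skin barrier. HDAC3 is a histone deacetylase that works within the NCoR/SMRT corepressor complexes. Whether and where both proteins sit at these barrier genes is the question the peak lists address here.

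The 150 bases before each gene start are shown first, because start peaks of both factors overlapped them at 4 of the genes, Flg2, Flg, Hrnr and Rptn. The sequences are from RefSeq (GRCm38.p6, plus strand, read 5′ to 3′) and end at the base before the start. Capitals mark each complete match to TGANTCA and to GGGTG on either strand, the CACCC-box core of KLF sites. TGANTCA is a looser form of the AP-1 consensus TGA(C/G)TCA, with any base (N) in the middle. The order is that along the chromosome.
Crnn, chr3:93144639-93144788: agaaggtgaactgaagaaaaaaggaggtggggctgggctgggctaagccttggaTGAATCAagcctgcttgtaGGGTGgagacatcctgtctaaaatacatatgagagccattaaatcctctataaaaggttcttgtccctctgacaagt
Flg2, chr3:93197123-93197272: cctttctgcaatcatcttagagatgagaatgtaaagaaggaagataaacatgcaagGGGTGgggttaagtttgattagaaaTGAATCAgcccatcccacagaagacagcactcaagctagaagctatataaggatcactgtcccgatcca
Flg, chr3:93273396-93273545: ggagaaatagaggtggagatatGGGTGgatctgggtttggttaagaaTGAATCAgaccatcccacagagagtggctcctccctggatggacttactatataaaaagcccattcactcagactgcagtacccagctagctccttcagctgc
Hrnr, chr3:93319599-93319748: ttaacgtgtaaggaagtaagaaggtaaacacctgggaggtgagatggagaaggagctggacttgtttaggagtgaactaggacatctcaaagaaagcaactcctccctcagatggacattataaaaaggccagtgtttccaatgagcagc
Rptn, chr3:93393549-93393698: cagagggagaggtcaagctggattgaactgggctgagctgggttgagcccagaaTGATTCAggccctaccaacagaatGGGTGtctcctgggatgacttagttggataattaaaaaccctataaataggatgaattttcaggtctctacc
Tchh, chr3:93442180-93442329: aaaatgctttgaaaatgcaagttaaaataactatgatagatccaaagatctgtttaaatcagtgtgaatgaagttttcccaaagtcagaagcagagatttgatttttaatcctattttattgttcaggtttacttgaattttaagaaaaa
Tchhl1, chr3:93468604-93468753: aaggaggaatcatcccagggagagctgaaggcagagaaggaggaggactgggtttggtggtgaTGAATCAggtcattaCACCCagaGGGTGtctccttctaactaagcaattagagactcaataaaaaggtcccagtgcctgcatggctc

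Both factors had peaks at the starts of 5 of the 7 genes: Crnn, Flg2, Flg, Hrnr and Rptn. Tchhl1 had a KLF4 peak alone at its start, and Tchh had no peak of either factor within 1 kb of either end. An HDAC3 peak within 1 kb of either end was thus present at 5 of the 7 genes (71.4%), against 18.9% of all 21887 protein-coding genes. A KLF4 peak was present at 6 (85.7%), against 23.1%, and peaks of both at 5, against 10.3%. Counting transcription starts alone left the counts for the 7 genes at 5, 6 and 5, while the shares of the 17492 protein-coding genes with a start in the promoter table were 15.9% for HDAC3, 21.3% for KLF4 and 9.06% for both. With only peaks 8-fold or more over input, the 7 genes counted 3 for HDAC3, 4 for KLF4 and 3 for both, and among the 10000 highest-scored peaks of each list 3, 1 and 1. Shares of all protein-coding genes at these settings are not given here, so these counts cannot be set against the genome. These neighbours share 1 stretch of chromatin and are not independent draws from the genome.

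At the filaggrin gene Flg, the start peaks of both factors lay almost on top of each other. The HDAC3 peak (93273431 to 93273615, centred 23 bp upstream of the start) scored 35 and was 20.55-fold over input. The score, the tag number after the peak caller's adjustment, ranks peaks within a list only: 77.6% of HDAC3 peaks scored lower. The KLF4 peak (93273438 to 93273622, centred 16 bp upstream) scored 85, above 64.4% of its list, and was 38.9-fold over input. Only 1 input tag fell in either interval, so both folds are imprecise. The centres were 7 bp apart, and both intervals contained the TGAATCA match shown above.

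Flg2, which encodes the related filaggrin family protein 2, had the highest KLF4 start peak of the 7 genes. Its KLF4 peak (93197042 to 93197226) scored 119, above 79.1% of the list, was centred 139 bp upstream of the start and was 7.63-fold over input. The HDAC3 peak (93197128 to 93197312) scored 57, above 91.4% of its list, was centred 53 bp upstream and was 5.95-fold over input. Their centres were 86 bp apart, and both intervals held the TGAATCA match.

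Hrnr, the gene of hornerin, a repeat-rich protein of the cornified layer, had 2 overlapping pairs near its start. In the first, the HDAC3 peak (93319544 to 93319728) scored 45 and was 11.58-fold over input, and the KLF4 peak (93319551 to 93319735) scored 98 and was 10.74-fold over input. Their centres were 7 bp apart, 113 and 106 bp upstream of the start. The second pair lay inside the gene, with HDAC3 scoring 32 at 524 bp and KLF4 scoring 60 at 628 bp downstream of the start. Hrnr was the only 1 of the 5 genes with both factors whose promoter window had no TGANTCA match.

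At Rptn, which encodes repetin, a matrix protein of the outer epidermis, the start pair was centred furthest upstream. The HDAC3 peak (93393425 to 93393609) scored 34 at 182 bp upstream and was 5.02-fold over input. The KLF4 peak (93393420 to 93393604) scored 110, above 76.1% of its list, lay 187 bp upstream and was 12.44-fold over input. The centres were 5 bp apart, the closest of all pairs at the 7 genes.

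Crnn is the gene of cornulin, a protein of stratified squamous epithelia. Its HDAC3 start peak (93144827 to 93145011, centred 130 bp inside the gene) scored 61, the highest HDAC3 start peak of the group and above 92.8% of the list, at 12.4-fold over input. Its KLF4 start peak (93144702 to 93144886, centred 5 bp inside) scored 55, above 40.7% of the list, at 6.56-fold over input. The centres were 125 bp apart, the widest separation among the start pairs. Beyond the other end of Crnn, by 389 bp, stood a KLF4 peak of score 40, with no HDAC3 peak nearer than 5288 bp. A pair further beyond that end, at 10269 bp (HDAC3, score 45) and 10356 bp (KLF4, score 79), had centres 87 bp apart.

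Tags in the start peaks set limits on how far these genes can be ordered. For HDAC3, Crnn had 76 tags (95% Poisson interval 59.9 to 95.1), Flg2 71 (55.5 to 89.6), Hrnr 71 (55.5 to 89.6), Flg 42 (30.3 to 56.8) and Rptn 41 (29.4 to 55.6). The intervals of Crnn, Flg2 and Hrnr overlapped one another, as did those of Flg and Rptn, while that of Crnn lay wholly above those of Flg and Rptn. For KLF4, Flg2 had 118 tags (97.7 to 141), Rptn 110 (90.4 to 133), Hrnr 95 (76.9 to 116), Flg 86 (68.8 to 106), Crnn 57 (43.2 to 73.9) and Tchhl1 52 (38.8 to 68.2). The intervals of Flg2, Rptn, Hrnr and Flg overlapped one another, and those of Flg2, Rptn and Hrnr lay wholly above those of Crnn and Tchhl1. By tag number alone, Crnn stood first for HDAC3 and next to last of 6 for KLF4. Its interval overlapped those of Flg2 and Hrnr for HDAC3 and those of Flg and Tchhl1 for KLF4, so neither place is firm.

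**Figure D1:**
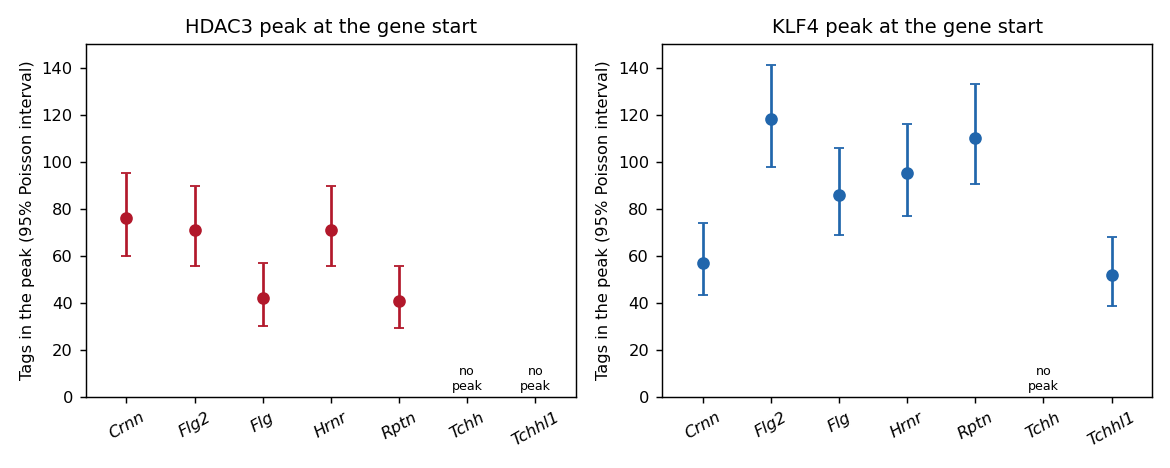
Tags in the peak at the start of each gene (points) with 95% Poisson intervals (bars), HDAC3 on the left and KLF4 on the right, with genes in chromosome order. Crnn has the most HDAC3 tags (76), Flg2 the most KLF4 tags (118), and Tchh has no start peak of either factor.

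Tchh and Tchhl1 lie at the far end of the row. Tchh encodes trichohyalin, the reinforcing protein of the inner root sheath and medulla of hair. Its nearest pair lay 1608 bp upstream of the start for HDAC3 (score 34, 4.53-fold over input) and 1666 bp upstream for KLF4 (score 34, 4.98-fold over input). A pair further upstream, at 10567 bp (HDAC3, score 32) and 10694 bp (KLF4, score 42), had centres 127 bp apart. The highest peak at Tchh was a KLF4 peak inside the gene (93447552 to 93447736), 5314 bp downstream of the start, which scored 135, above 83.5% of the list. The nearest HDAC3 peak, of score 25, was 2768 bp from it. At Tchhl1, a trichohyalin-like gene, the KLF4 peak (93468663 to 93468847) was centred 1 bp inside the start, scored 54 and was 4.7-fold over input. The HDAC3 peaks of Tchhl1 numbered 2, both of score 18 where the calling threshold was 16 tags, and they lay 9217 bp upstream of its start and 6862 bp beyond its other end.

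Windows of 300 bases, from 250 before to 50 after each start, were searched on both strands. TGANTCA was present at Crnn, Flg2, Flg, Rptn and Tchhl1, 5 of 7 windows, against 7.81% of the 32851 promoter windows of all genes. Each of the 5 matches began between 69 and 103 bases before the start, and 4 read TGAATCA while that of Rptn read TGATTCA. None of the 5 had the C or G of the AP-1 consensus in the middle. The shares in this paragraph count any middle base, and shares for these variants alone are not given here. Among windows that held peak centres of both factors, genome-wide, 16.9% (106 of 627) had the motif, against 7.46% of windows with neither. In the neighbouring families it was present in 9 of 14 windows of small proline-rich genes, 3 of 16 of S100 genes and 0 of 20 of late cornified envelope genes.

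GGGTG was found in 6 of the 7 windows, in every one except that of Tchh. It is a short string that 57.5% of all promoter windows hold. At Crnn, Rptn and Tchhl1 it lay between the TGANTCA match and the start, while at Flg it lay further upstream of that match. Flg2 had matches on either side of its TGAATCA. At Hrnr the only match spanned the start itself. The longer KLF string GGGNGTGG, present in 17.6% of all windows and 29.1% of those holding a KLF4 peak centre, was in none of the 7. GCCNNNGGC, an AP-2 string, was also in none (16.6% of all windows), and AACNGGTT, a grainyhead-like string, was in 1, at Rptn (2.09%).

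A TATAA string, searched after the sequences had been read, stood 24 to 53 bases before the start in 5 genes, Crnn, Flg2, Flg, Hrnr and Rptn. These were the 5 genes with start peaks of both factors. Within the 150 bases before the start, 14.2% of all promoters held it. Over 300 bases it was in 24.9% of all windows and in 19.9% of those with peak centres of both factors. Among small proline-rich genes, 10 of 14 (71.4%) held it within the 150 bases, the same share as the 5 of 7 here, while 5 of those 14 had gene-end peaks of both factors. Tchhl1 had its only match 238 bases upstream and Tchh only past the start. These matches describe letters in the windows and show no binding. The 5 promoters were not near-identical copies: aligned over the 150 bases, pairs among them were 47.2% to 60.6% identical, and pairs with Tchh 43.7% to 50.3%.

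**Figure D2:**
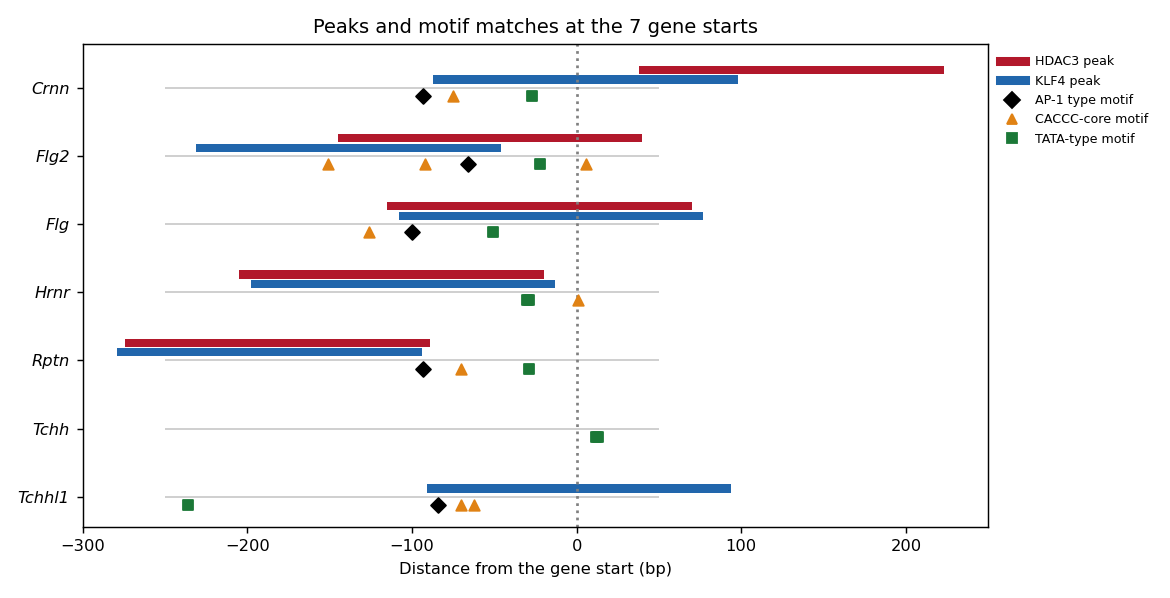
Peak intervals (bars, HDAC3 above KLF4) and motif matches (symbols) around the start of each gene, with distance from the start in bp on the horizontal axis. The TGANTCA match (AP-1 type in the key) of Flg2 and Flg lies inside the intervals of both factors. That of Crnn lies just upstream of its KLF4 peak, and Tchh has neither a peak nor a TGANTCA match.

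Away from the starts, peaks were frequent along the whole row. Between the start of Crnn and the end of Tchhl1, a span of 327 kb, there were 37 HDAC3 peaks and 35 KLF4 peaks, or 11.3 and 10.7 per 100 kb. The lists as a whole correspond to 2.90 HDAC3 and 2.36 KLF4 peaks per 100 kb of the effective genome size in their headers. The span of the late cornified envelope genes had a similar density, 11.1 and 9.41 per 100 kb, and that of the small proline-rich genes 5.97 and 6.67. Per gene, the 7 had between 2 and 11 HDAC3 peaks (median 5) and between 1 and 9 KLF4 peaks (median 4), where the median of all protein-coding genes was 1 for either factor. Flg2 had the most HDAC3 peaks (11), Flg the most KLF4 peaks (9) and Tchhl1 the fewest of both (2 and 1). The nearest-end rule gives more peaks to genes with more space around them, which also limits the comparison with all genes. Per 10 kb of the stretch assigned to each gene, Flg was highest for both factors (HDAC3 1.69, KLF4 1.52). Flg2 had 1.49 and 1.08, and Tchhl1 was lowest (0.536 and 0.268).

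**Figure D3:**
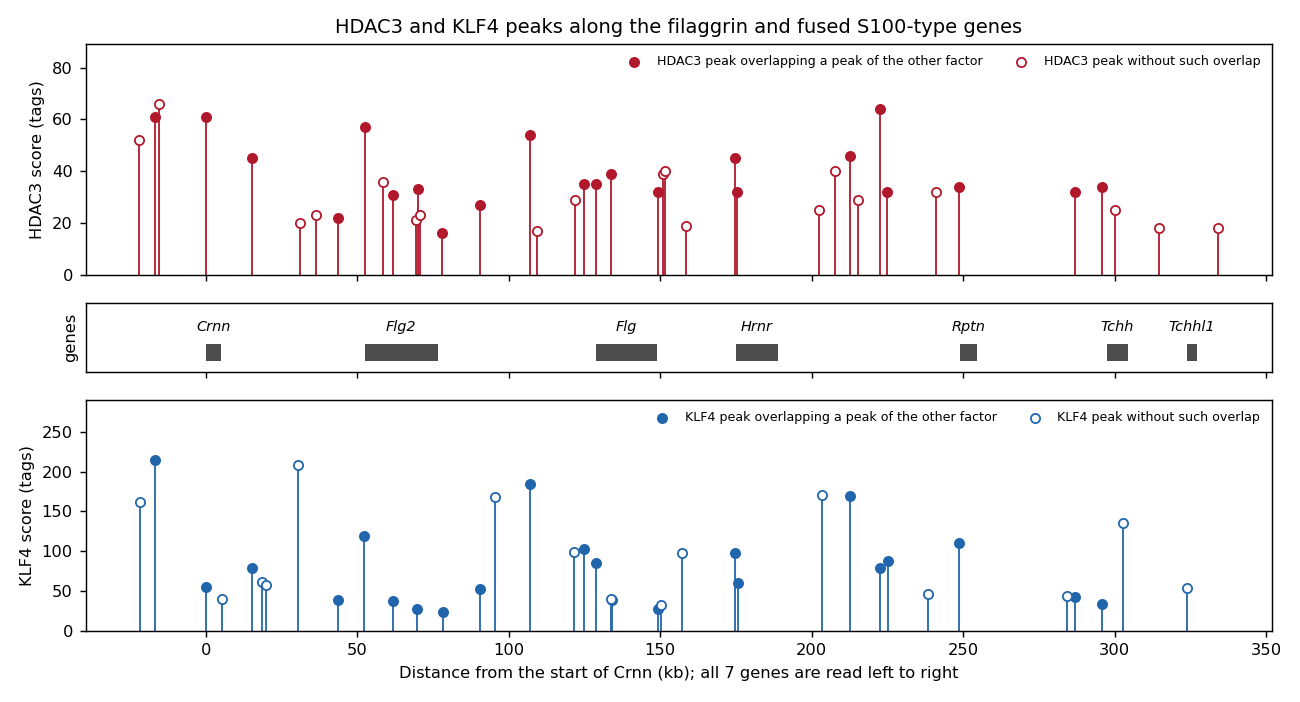
Score of each HDAC3 peak (top) and KLF4 peak (bottom) against distance from the start of Crnn in kb, with gene bodies between. Filled points overlap a peak of the other factor, and open points do not. The 8 highest KLF4 peaks, of score 135 or more, all lie away from gene ends, and 5 of them are open. Of the 10000 highest-scored KLF4 peaks of the whole list, 57.2% overlap an HDAC3 peak.

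Overlap of at least 1 bp linked 22 pairs, at 6 of the 7 genes. This was 53.7% of the 41 HDAC3 peaks (exact Clopper-Pearson 95% interval 37.4 to 69.3), against 25.8% of the whole HDAC3 list, and 59.5% of the 37 KLF4 peaks (42.1 to 75.2), against 31.7% of the whole KLF4 list. Neighbouring peaks of 1 locus are not independent draws, so these intervals do not test the difference from the whole lists. Higher peaks overlap more often throughout the lists, and the median score of these HDAC3 peaks was 32, where that of the list was 22. Among HDAC3 peaks above the list median, 20 of 33 (60.6%) overlapped a KLF4 peak, against 51.5% of all HDAC3 peaks above it. Among those at or below the median it was 2 of 8, against 4.41%. The median score of the KLF4 peaks was 61, where that of the list was 65. Among KLF4 peaks above the list median, 11 of 18 (61.1%) overlapped an HDAC3 peak, against 43.8% of all KLF4 peaks above it. Those at or below the median overlapped in 11 of 19 cases (57.9%), against 20.1%. Of the 10 HDAC3 peaks among the 10000 highest-scored of their list, 8 (80.0%) overlapped a KLF4 peak of any height, against 81.1% of those 10000. Of the 9 KLF4 peaks among the 10000 highest-scored, 4 (44.4%) overlapped an HDAC3 peak of any height, against 57.2%. With 10 and 9 peaks, 1 peak moves these shares by a large step. Both lists were called against the same input library, and what part that input has in the overlap was not tested.

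By the median, the centres of overlapping peaks were further apart here than in the whole lists. The centres of the 22 pairs were a median of 59.5 bp apart, from 5 to 159 bp, where the median of all 14962 overlapping pairs was 31.0 bp. Of the 22, 8 had centres within 50 bp of each other. The share of all pairs within that distance is not given here, and the difference in medians was not tested. At gene ends, all 7 HDAC3 peaks overlapped a KLF4 peak, and 7 of 9 KLF4 peaks overlapped an HDAC3 peak. The exceptions were the KLF4 peaks at the start of Tchhl1 and beyond the far end of Crnn. Further from gene ends, 15 of 34 HDAC3 peaks and 15 of 28 KLF4 peaks overlapped. Shares for all gene-end peaks and for all other peaks of the lists are not given here. These counts therefore cannot be called particular to the 7 genes.

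**Figure D4:**
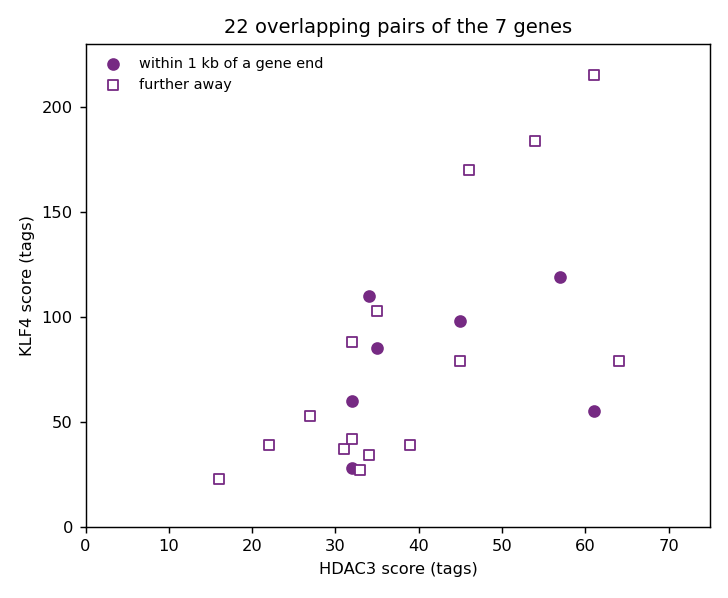
KLF4 score against HDAC3 score for the 22 overlapping pairs, each score in tags of its own library. Filled circles lie within 1 kb of a gene end and open squares further away. The pairs with the highest KLF4 scores (215, 184 and 170) are distant ones, and the circle with an HDAC3 score of 61 is the start of Crnn.

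By KLF4 score the 3 highest overlapping pairs were distal, while by HDAC3 score the pairs at the starts of Crnn (61) and Flg2 (57) were among the highest. Upstream of Crnn, HDAC3 (93127941 to 93128125, score 61) and KLF4 (93127996 to 93128180, score 215, 16.51-fold over input) overlapped 16756 and 16701 bp upstream of Crnn. The KLF4 peak was the highest of the 37 and stood above 93.9% of its list. That site also lay 212 bp (HDAC3) and 157 bp (KLF4) from the start of the noncoding RNA gene Gm35785, which runs away from Crnn, so its assignment to Crnn rests on counting protein-coding genes only. The highest HDAC3 peak of the group (93129152 to 93129336, score 66, 8.32-fold over input) lay 15545 bp upstream of Crnn, and its nearest KLF4 peak was 1156 bp away. It was 999 bp from the start of Gm35785, so the same limit holds for its assignment.

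Between Flg2 and Flg, a pair stood 21858 bp (HDAC3) and 21874 bp (KLF4) upstream of Flg. The HDAC3 peak scored 54, above 90.2% of its list, and the KLF4 peak 184, above 91.2%. They had 12.11-fold and 30.99-fold more tags than the surrounding 10 kb. A second pair upstream of Flg lay nearer, at 3823 bp (HDAC3, score 35) and 3768 bp (KLF4, score 103).

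Between Hrnr and Rptn, HDAC3 (93357323 to 93357507, score 46) and KLF4 (93357317 to 93357501, score 170) had centres 6 bp apart, 23843 and 23837 bp beyond the end of Hrnr. Further along, 2 pairs were nearer to Rptn. The HDAC3 peak of score 64 at 26271 bp upstream was 38.66-fold over an input of 1 tag and stood above 93.6% of its list, while its KLF4 partner scored 79. In the other pair, 23875 bp upstream, HDAC3 scored 32 and KLF4 88.

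Several high KLF4 peaks had no overlapping HDAC3 peak. The second highest KLF4 peak of the group (93175121 to 93175305, score 208) lay 22060 bp upstream of Flg2 and had 43.35-fold more tags than its surroundings. An HDAC3 peak of score 20 was centred 594 bp from it. The others were a peak of score 171 at 14688 bp beyond Hrnr (HDAC3 peak 1194 bp away), 1 of score 168 at 18964 bp beyond Flg2 (4945 bp), 1 of score 162 at 21671 bp upstream of Crnn (255 bp) and that of score 135 inside Tchh. The peak of score 162 lay inside the noncoding RNA gene Gm35785, so its assignment to Crnn rests on counting protein-coding genes only. Among the 8 highest KLF4 peaks, 3 overlapped an HDAC3 peak, and among the 8 highest HDAC3 peaks, 6 overlapped a KLF4 peak. Of the 10000 highest-scored peaks of each whole list, 57.2% of KLF4 and 81.1% of HDAC3 peaks overlapped a peak of the other factor. With 8 peaks each, a difference from these shares was not tested. A missing HDAC3 peak means that no peak passed the calling limits at this depth.

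Inside the genes were centred 9 HDAC3 and 8 KLF4 peaks, unevenly spread, of which 5 HDAC3 and 2 KLF4 peaks were in Flg2. No peak of either factor touched the last 14.8 kb of Flg, the last 13.1 kb of Hrnr or any part of Rptn (5.74 kb). The last 4.81 kb of Crnn and the last 3.13 kb of Tchhl1 were also free of peaks. Whether gaps of such lengths are unusual was not tested. The bodies of Flg, Hrnr and Rptn encode tandem repeats. How reads that align to several places were treated is not given in the sources used here, and its part in these gaps was not tested. In Flg the only internal peaks lay within the annotated pseudogene Rplp0-ps1 (93278070 to 93279153): 1 HDAC3 peak of score 39 and 2 KLF4 peaks of scores 40 and 39. Rplp0, a ribosomal protein gene and the one whose symbol the pseudogene carries, had no HDAC3 peak and a KLF4 peak of score 99, 1093 bp from its start. A further pair, HDAC3 27 and KLF4 53, lay in the pseudogene Gm18432 beyond Flg2. Reads from near-identical copies cannot be told apart in the lists, so these peaks are uncertain. Without them, 20 of 39 HDAC3 peaks and 20 of 34 KLF4 peaks overlapped.

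At the outer borders of the rule, the first peaks inside on the Crnn side were HDAC3 52 and KLF4 162, and the nearest outside, assigned to Tdpoz8, were HDAC3 22 and KLF4 40. On the Tchhl1 side the last inside were HDAC3 18 and KLF4 54, and the nearest outside, assigned to S100a11, were HDAC3 21 and KLF4 118.

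Compared with 3 other families of the same complex, the filaggrin and fused S100-type genes had the highest share of genes with gene-end peaks of both factors, 5 of 7. The share was 5 of 14 small proline-rich genes, 5 of 21 late cornified envelope genes and 3 of 15 S100 genes. HDAC3 gene-end peaks stood at 8, 9 and 4 genes of these families and KLF4 gene-end peaks at 6, 8 and 7. Ivl and Lor, envelope precursor genes of chromosome 3 outside these families, each had gene-end peaks of both factors. With 7 genes the difference from the other families was not tested.

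**Figure D5:**
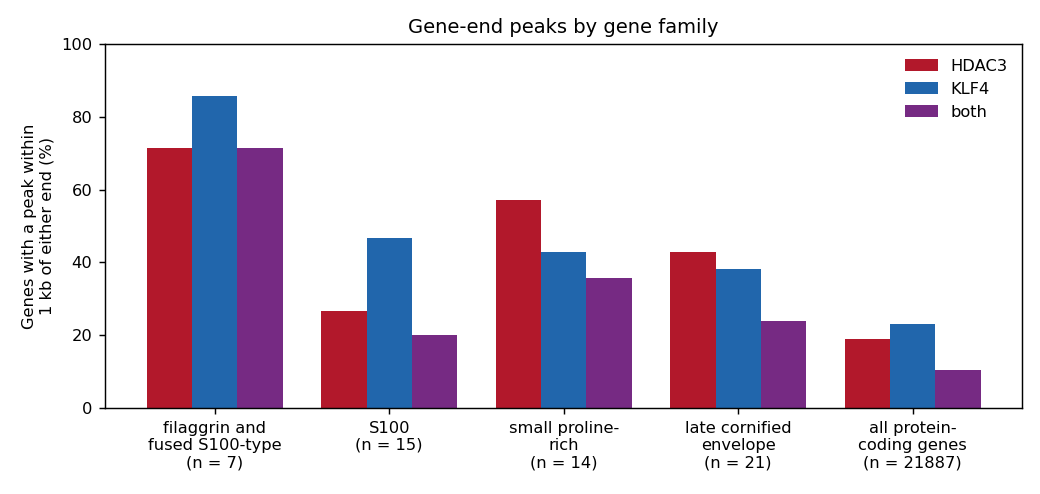
Percentage of genes with an HDAC3 peak, a KLF4 peak or both within 1 kb of either gene end, for the 7 genes, 3 neighbouring families and all protein-coding genes (n under each group). The 7 genes have 71.4% for HDAC3 and 85.7% for KLF4, against 18.9% and 23.1% of all genes.

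Genes linked to filaggrin or to the envelope were counted beside the 7. Of these 23 genes, HDAC3 stood at the ends of 9, KLF4 at those of 13 and both at 9, where the shares of all protein-coding genes were those given above. Of 15 genes grouped under processing and breakdown, 5 had both: Casp14, Hal, Blmh, Ctsh and Tmem79. Casp14 encodes caspase-14, needed for filaggrin breakdown, and Hal histidase, which turns the freed histidine into urocanic acid. Blmh encodes bleomycin hydrolase, a protease of filaggrin breakdown, and Ctsh cathepsin H. Tmem79 encodes a membrane protein and is mutated in matted mice, and its grouping here implies no direct action on filaggrin. The highest peaks of the list were at Tmem79, with HDAC3 130 and KLF4 717. Tgm1, the gene of a cross-linking transglutaminase, had HDAC3 92 and KLF4 293, and Lor, the gene of the envelope protein loricrin, had HDAC3 74 and KLF4 210. Neither factor had a gene-end peak at Furin, St14, Asprv1, Klk5, Cela2a, Capn1, Padi3, Spink5, Tgm3 or Krt2. These were 10 of the 23 genes, where 14943 of all 21887 protein-coding genes had neither, so such absences are common.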

How the data were processed

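HDAC3 and KLF4 ChIP and input libraries took their group from the labelled antibody. The tools named in the submitters' processing notes are STAR, bcl2fastq and HOMER, with the build GRCm38.p5 and no tool version. Each list was, per the file headers, called in HOMER's factor style against the same input, without pooling. Peaks were 185 bp wide and at least 370 bp apart, and needed 4-fold more tags than input and than the local 10 kb, a Poisson p-value of 1e-04 and a false discovery rate of 0.001. At most 2 (HDAC3) or 3 (KLF4) tags per base counted.

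The deposited tag signal was scaled by the authors' caller to 10000000 tags per library, and it was multiplied back to tags here for exact Poisson intervals. The deposited score ranks peaks within a list. The deposited fold values are ratios over input, where an input of 0 is written as 0.5, or over the local region. The p-value and the per-peak tag fraction, both from the authors' caller, were not analysed.

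Peaks were placed on RefSeq genes of GRCm38.p6, whose chromosome coordinates patches do not change. Genome-wide overlap shares leave out peaks on unplaced scaffolds. An overlap meant centres at most 184 bp apart. Positions, overlaps and motif searches were tested on simulated data. Promoter pairs were aligned globally (match 1, mismatch -1, gap opening -2, extension -0.5) with Biopython 1.88, and intervals came from SciPy 1.17.1. All 7 genes were described, with the highest peak of each factor, every gene-end peak and the overlapping peaks among the 3 highest of each gene named. Peaks described beyond that, the TATAA search and the 5 named genes with both factors were chosen after values were seen. The members and lists were chosen with earlier results of these data known. No model or test was run, since each antibody had 1 library.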

Additional observations from a re-analysis of the deposited data

How the results depend on the processing

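Over 42 recomputed values, 30 stayed within 1.5 times the reported count, or within the interval of the reported share. The counts of 5, 6 and 5 genes with gene-end peaks of HDAC3, KLF4 and both were the same with a window of 500 bp and with transcription starts only, and were 6, 7 and 6 with 5 kb. Among peaks at least 8-fold over input there were 17 HDAC3 and 22 KLF4 peaks, the shares overlapping were 35.3% (21.7% of all such HDAC3 peaks) and 27.3% (20.4% of all such KLF4 peaks), and HDAC3 stood at the ends of 3 genes, with both factors at 3. Among the 10000 highest-scored peaks of each list there were 10 HDAC3 and 9 KLF4 peaks, with HDAC3 at the ends of 3 genes, KLF4 at 1 and both at 1. There 40.0% of the HDAC3 and 44.4% of the KLF4 peaks overlapped, against 49.0% of the 10000 in each list. Both settings keep fewer peaks by construction, and they also remove partners from the other list. Shares of all protein-coding genes are not given for the gene counts at these settings or with windows of 500 bp and 5 kb. With partners from the whole other list, the shares among peaks at least 8-fold over input were 52.9% (9 of 17, against 25.5% of all such HDAC3 peaks) and 59.1% (13 of 22, against 40.1% of all such KLF4 peaks), and among the 10000 highest-scored 80.0% (8 of 10, against 81.1%) and 44.4% (4 of 9, against 57.2%). With centres within 92 bp the shares were 39.0% (whole list 22.9%) and 43.2% (28.1%). With the nearest end taken over genes of any type, 33 HDAC3 and 28 KLF4 peaks remained, of which 51.5% (whole list 25.8%) and 60.7% (31.7%) overlapped. Leaving out peaks inside pseudogenes and keeping the whole other list were chosen after seeing the data. No paired analysis was possible because each group holds 1 library. Input tags per peak, where 0.5 stands for none, reached at most 10, so single folds over input are imprecise.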

Other observations

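Both factors had peaks just beyond the end of Flg, a region the comparisons above mention only in counts. HDAC3 peaks of scores 32, 39 and 40 were centred 407, 1980 and 2582 bp beyond the end. KLF4 peaks of scores 28 and 33 were centred 487 and 1500 bp beyond it, both among the lower peaks of their list, of which 10.3% and 16.5% scored less. The HDAC3 peaks stood above 74.3%, 81.1% and 81.9% of theirs. The first HDAC3 peak overlapped the first KLF4 peak, and the second lay 480 bp from the nearest KLF4 peak.

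Inside Flg2, the HDAC3 peaks of scores 36, 31, 21, 33 and 23 lay from 6002 to 18223 bp downstream of the start. The KLF4 peaks there numbered 2, of scores 37 and 27, and each overlapped 1 of the HDAC3 peaks. The HDAC3 peak of score 31 had no input tag, written as 0.5, so its 45.02-fold enrichment has no firm base.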
